A study of Caenorhabditis elegans with 2 samples.

Results

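The linker histone genes of Caenorhabditis elegans were examined for binding of PROS-1, a homeodomain transcription factor of the Prospero type. The genes are the 9 named members of the family, his-24 and hil-1 to hil-8, out of 19973 protein-coding nuclear genes, and they were chosen by name. The data are ChIP-seq peak lists. In this assay DNA bound by a protein is recovered with an antibody and sequenced, and regions with more reads than a control are called as peaks. There was 1 group with 2 biological replicates, numbered 1 and 2 in the labels, each of whole late embryos of both sexes. All came from strain OP500, which carries unc-119(tm4063) on chromosome III and the transgene wgIs500 with an eGFP-tagged pros-1. Both replicates are described as ChIP-seq against eGFP-pros-1, and the antibody label of both reads pros-1. The labels give both replicates the same donor and no age in hours. As no condition was varied, the comparison is between these genes and all other protein-coding genes, and between the replicates. Expression was not measured, so the labelled stage could not be checked against marker genes. In whole embryos, binding in few cells and weak binding in many cells cannot be told apart.

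Linker histones, the H1 class, bind where DNA enters and leaves the nucleosome and help to fold the nucleosome chain into denser chromatin. In vertebrates and worms alike they are encoded by several genes, whose products differ mostly in their tails. In C. elegans his-24 encodes the best studied H1, which is needed to keep repeated transgenes silent in the germ line, and the hil genes (histone H1-like) encode the other variants. The canonical core histones, by contrast, form the nucleosome itself.

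PROS-1 peaks lay at the promoters of hil-7 and his-24, and the other 7 linker histone genes had none. The hil-7 peak was among the strongest of the whole experiment, whereas that of his-24 was near the lower end of the list. The sequences at these peaks are shown first. They are taken from the WBcel235 genome of RefSeq, the same assembly as the ce11 build of the peak files, on the plus strand, on which both genes lie. Capitals mark a match to 1 of 10 short words searched on both strands, namely the GAGA repeat GAGAGAG, the GC-box GGGCGG, the half-sites AAGACG and AAGGCG of Prospero type, the homeodomain word TAATTA, the GATA word AGATAA, the E-box CACGTG, the CCAAT box, the TATA word TATAAA and AAACACA, the H1 box of vertebrate linker histone promoters.

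The peak upstream of hil-7, chrIV:6646010-6646115, with the summit at base 80, is printed whole. The part of the his-24 peak that lies upstream of the gene's start, chrX:14489900-14490093, has the summit at base 163. The part of the peak behind hil-7 that lies outside the gene, chrIV:6646973-6647177, has the summit at base 44.
hil-7 promoter: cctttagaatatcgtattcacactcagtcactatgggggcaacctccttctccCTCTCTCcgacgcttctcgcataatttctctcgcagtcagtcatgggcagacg
his-24 promoter: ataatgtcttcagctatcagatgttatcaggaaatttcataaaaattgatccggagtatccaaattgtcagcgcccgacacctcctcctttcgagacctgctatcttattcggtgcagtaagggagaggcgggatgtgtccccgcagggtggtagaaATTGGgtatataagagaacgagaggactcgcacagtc
hil-7 downstream: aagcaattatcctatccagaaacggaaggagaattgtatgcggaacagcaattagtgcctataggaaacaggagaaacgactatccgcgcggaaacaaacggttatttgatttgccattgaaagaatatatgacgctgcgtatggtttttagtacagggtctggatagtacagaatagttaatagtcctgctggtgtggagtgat

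In the hil-7 promoter sequence the word GAGAGAG occurs once, read on the opposite strand as CTCTCTC, and its first base lies 26 bp before the summit. Within 50 bp of the summit, GAGAGAG occurs at 17.9% of all 737 peaks of the final list and at 4.24% of all 30000 pooled candidates. In the his-24 promoter sequence CCAAT occurs once, on the opposite strand, and begins 5 bp before the summit. That word is found at 14.7% of the 737 peaks and at 20.1% of the pooled candidates. None of the other 8 words was found within 50 bp of either promoter summit, and none of the 10 within 50 bp of the summit behind hil-7. GC content within 50 bp of the summit was 53.5% at the hil-7 promoter summit, 51.5% at that of his-24 and 43.6% at the summit behind hil-7, against medians of 52.5% over all peaks of the final list and 40.6% over pooled candidates. The 2 promoter summits thus had the base composition typical of the final list, and the downstream one was below its lower quartile of 47.5%.

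The authors deposited 4 lists in the ce11 build. The final list holds the 737 peaks that passed their irreproducible discovery rate (IDR) threshold, and these are called IDR peaks here. They were the 737 strongest of 30000 candidates called on the pooled replicates, background included, and each replicate has 30000 candidates of its own. Each region carries the authors' signal value, an enrichment score with no stated scale, and the -log10 of a q-value. Signal values reached 127.1 in the pooled list, 36.02 in replicate 1 and 120.5 in replicate 2, with medians of 8.05, 3.33 and 6.15, so signal is read only within a list, and across lists only ranks are set side by side (rank 1 is the strongest). No read totals were used, and the depth of each library is unknown.

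An IDR summit lay in the promoter window, which reaches from 1000 bp before to 200 bp after each transcript start, of 2 of the 9 linker histone genes (22.2%) and of 509 of 19973 protein-coding genes (2.55%). With 9 genes, each gene is 11.1 percentage points of the family's share. No IDR summit lay within the body of a linker histone gene, between its first and last annotated base, against 0.946% of all protein-coding genes. Each of the 2 promoter summits lay in the promoter window of no other protein-coding gene, whereas the 9 core histone genes with a peak, several of them divergent pairs, had 5 peaks between them. The family's genes were short, with a median length of 1026 bp against 2027 bp for all protein-coding genes. The part of gene length in the body counts was not tested.

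hil-7 lies on chromosome IV from 6646312 to 6646972 on the plus strand (WBGene00001858), with 4 annotated transcripts that start at 4 positions. Its longest coding sequence in this annotation gives 66 residues, whereas those of the other 8 members give 151 to 253. The promoter peak was 106 bp wide, 1 of 44 IDR peaks narrower than the full width of 324 bp. Its signal value of 94.6 gave it rank 13 of the 737 IDR peaks, and its -log10 q-value of 3.11 was the highest value of the pooled list, which other peaks shared. By its best promoter summit hil-7 stood at place 9 of the 509 genes with an IDR promoter summit.

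Both replicates placed a strong summit there. In replicate 1 the summit lay 230 bp upstream of the first start, 7 bp from the IDR summit, with a signal value of 19.24 and rank 52. In replicate 2 it lay 242 bp upstream, 19 bp from the IDR summit, with a signal value of 74.17 and rank 11. The hil-7 promoter was therefore in the top 0.173% of the candidates of replicate 1 and the top 0.0367% of those of replicate 2. The IDR summit itself lay 223 bp upstream of the first start, in sequence that the annotation assigns to no gene. A non-coding RNA gene, C01B10.45 (6645868 to 6646001, plus strand), ended 88 bp before the summit, and a small nucleolar RNA gene, C01B10.48 (6645512 to 6645749, minus strand), started 340 bp before it. The summit thus lay upstream of both hil-7 and C01B10.48, which point away from each other. Which of these genes the peak belongs to was not tested, and it is named here after hil-7. Replicate 1 had a weak candidate over the small nucleolar RNA gene, 613 bp upstream of hil-7, with rank 15250. Both replicates also had a weak candidate directly at the start, at 20 bp upstream with rank 18202 in replicate 1 and at 42 bp upstream with rank 6346 in replicate 2. The next protein-coding gene whose start was near, C01B10.6, had its closest transcript start 1066 bp from the summit.

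A second IDR peak lay just behind hil-7. It ran from 6646854 to 6647177, so that it overlapped the last bases of the gene, but its summit was 44 bp beyond the gene's end and 704 bp from the first start. For that reason it counts neither as a promoter nor as a gene-body summit. Its signal value was 34.74 and its rank 415. Replicate 1 had a summit 23 bp away from it with a signal value of 8.96 and rank 697, and replicate 2 one 58 bp away with a signal value of 27.04 and rank 418. hil-7 thus had an IDR peak on each side, and in both replicates the upstream one ranked higher, at 52 against 697 in replicate 1 and at 11 against 418 in replicate 2. The nearest protein-coding start to the downstream summit was a start of hil-7 itself. No protein-coding promoter window held it, and no non-coding gene lay within 500 bp.

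**Figure D1:**
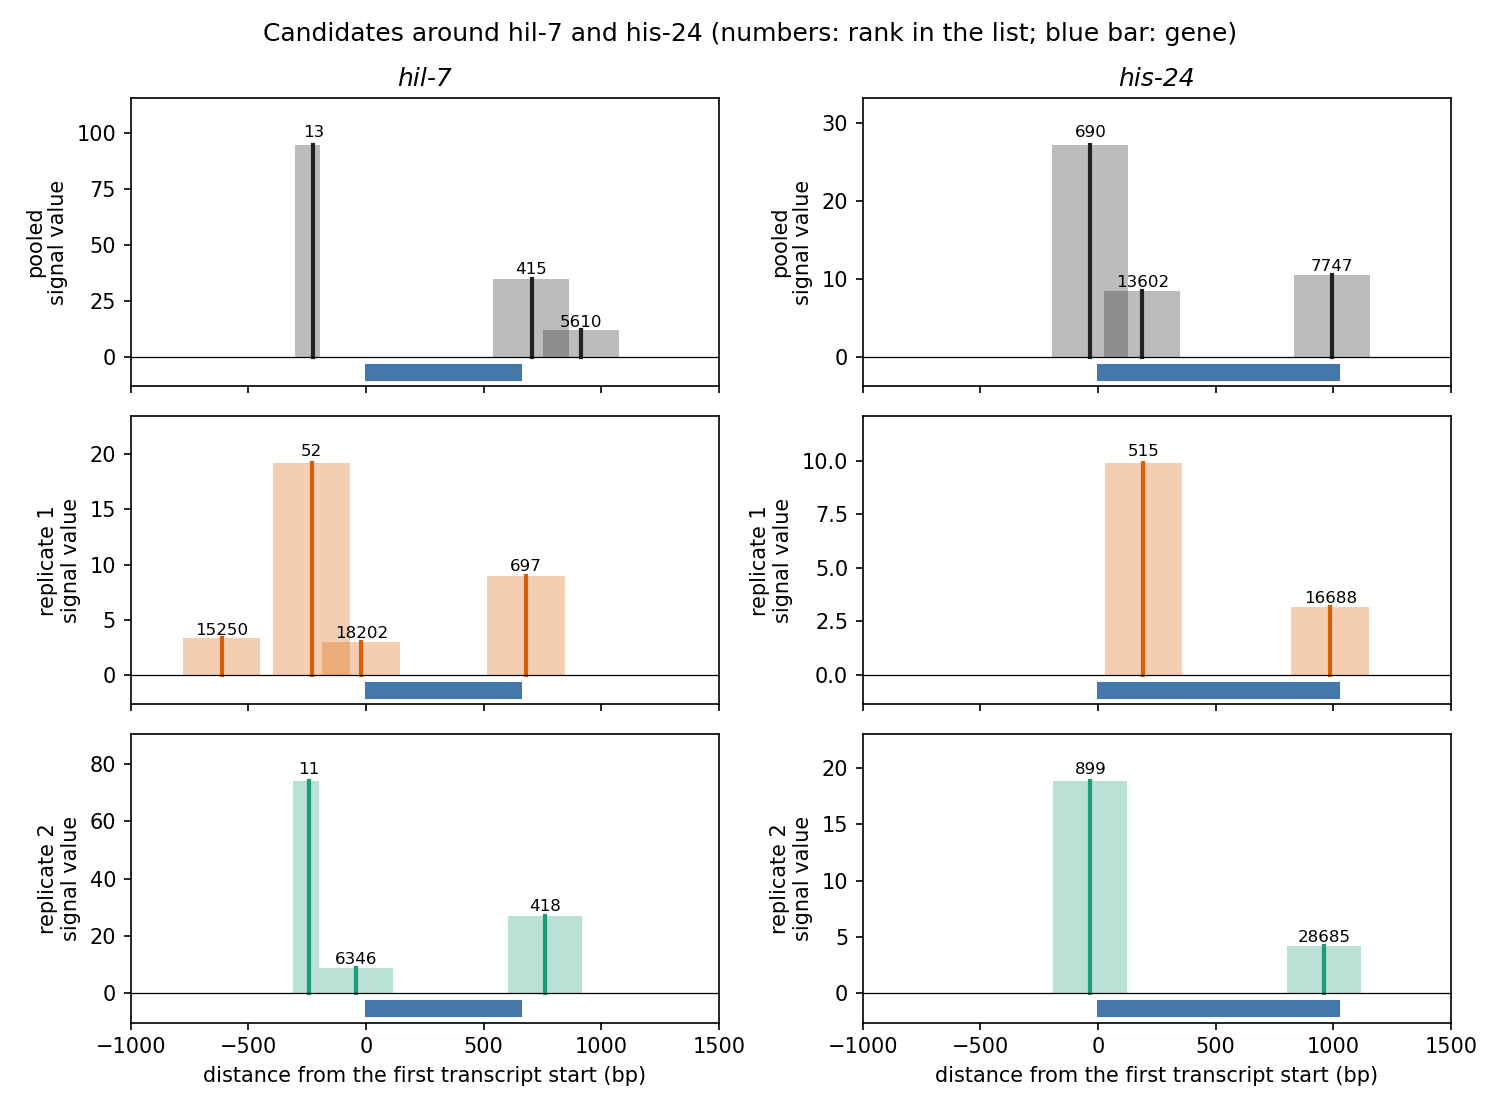
Candidate regions around hil-7 (left) and his-24 (right) in the pooled list and in replicates 1 and 2. The x axis is the distance from the first transcript start in bp and the y axis the authors' signal value, on its own scale in each panel; boxes are the regions, vertical lines their summits, numbers their ranks and the blue bar the gene. At hil-7 all 3 lists have a strong region upstream (ranks 13, 52 and 11) and one behind the gene (415, 697 and 418), whereas at his-24 the strongest summit is upstream in replicate 2 and inside the gene in replicate 1.

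his-24 lies on the X chromosome from 14490094 to 14491119 on the plus strand (WBGene00001898), with 1 annotated transcript of 2 exons that encodes 208 residues. Its IDR peak, from 14489900 to 14490223, had a signal value of 27.23 and rank 690 of 737, with a -log10 q-value of 2.66, against 2.47 for the lowest IDR peak. The summit lay 32 bp upstream of the start and inside a non-coding RNA gene on the opposite strand, M163.19 (14490006 to 14490148). A second such gene, M163.16 (14490327 to 14490548, minus strand), lay within his-24, 265 bp from the summit. By its best promoter summit his-24 stood at place 473 of the 509 genes with an IDR promoter summit.

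The replicates differed in where they put the his-24 signal. Replicate 2 had its summit at the same base as the IDR list, 32 bp upstream, with a signal value of 18.88 and rank 899. Replicate 1 had no summit within 200 bp of that base. Its nearest summit lay 193 bp downstream of the start, in the coding part of the first exon and 225 bp from the IDR summit, with a signal value of 9.90 and rank 515. The pooled list had both, the upstream summit with rank 690 and one at 189 bp downstream with a signal value of 8.40 and rank 13602. All 737 IDR summits were compared in the same way: 607 (82.4%) had a summit within 100 bp in both replicates, 121 (16.4%) only in replicate 2, as at his-24, and 8 (1.09%) only in replicate 1. Both replicates ranked a region at the 5' end of his-24 within their 1000 strongest candidates, but the summits were 225 bp apart. Another, weak candidate lay in the 3' UTR in every list but the IDR list. It was 994 bp from the start with rank 7747 in the pooled list, and had ranks 16688 and 28685 in replicates 1 and 2.

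The order of the 2 genes was the same in each list, with hil-7 above his-24 in the pooled list (ranks 13 and 690), in replicate 1 (52 and 515) and in replicate 2 (11 and 899). Among the 737 strongest candidates of replicate 1 alone, both genes had a summit in the promoter window, against 2.21% of all protein-coding genes. For his-24 this was the summit in the first exon, 193 bp downstream of the start. It lay 225 bp from the IDR summit and did not match it. Among the 737 strongest of replicate 2 alone, only hil-7 had one, against 2.37% of all genes, as his-24 with rank 899 fell short. Sequence around both genes was unique in the genome: every 31-base word of both promoter peaks and of the downstream peak occurred once.

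The 7 other members, hil-1 to hil-6 and hil-8, had only candidates that did not pass the threshold, and 1 of them, hil-5, had none at all in the pooled list. Over the whole family the pooled list had 13 summits in promoter windows or gene bodies, replicate 1 had 15 and replicate 2 had 14. A pooled candidate lay in the promoter window of 5 of 9 members (his-24, hil-1, hil-3, hil-4 and hil-7), against 41.9% of all protein-coding genes, and in the body of 7 of 9 against 48.2%. In replicate 1 the counts were 3 of 9 in promoter windows, against 40.4% of all genes, and 7 of 9 in bodies, against 49.5%. In replicate 2 they were 5 of 9 in promoter windows, against 41.2%, and 6 of 9 in bodies, against 48.7%. Candidates of this strength were thus common at all genes, and the family's counts of 3 to 7 of 9 are to be read against these shares.

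**Figure D2:**
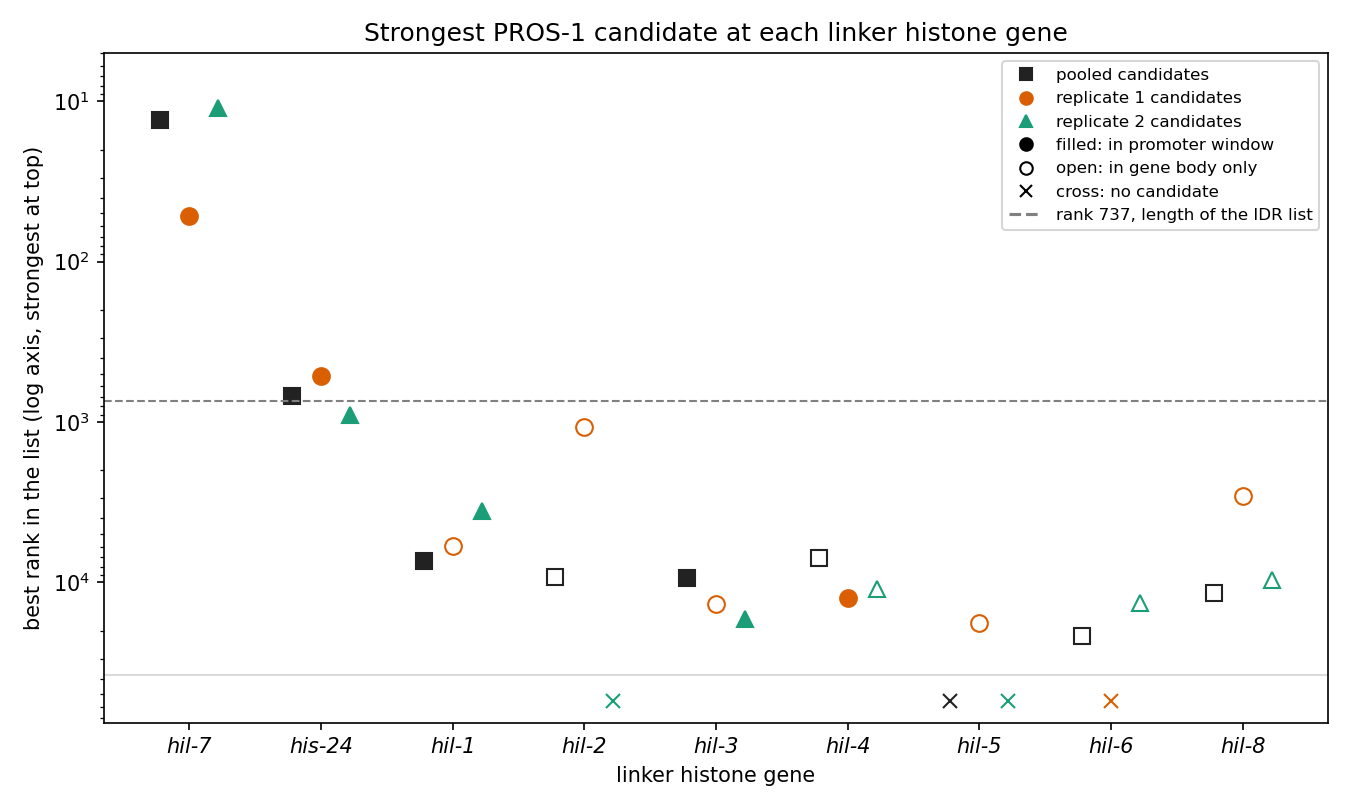
Rank of the strongest candidate in the promoter window or body of each linker histone gene, on a log axis with the strongest at the top. Filled symbols lie in the promoter window, open symbols in the gene body only, and crosses mark lists with no candidate at that gene; the dashed line is rank 737, the length of the IDR list. hil-7 stands at ranks 11 to 52 in all 3 lists and his-24 at 515 to 899, while the best rank of the other 7 genes is 1071.

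hil-2, on chromosome IV from 6294240 to 6295217, came nearest to the threshold in a single replicate. Replicate 1 had a summit in its coding sequence, 569 bp from the first start, with a signal value of 7.89 and rank 1071. Replicate 2 had no candidate in the gene or its promoter window, and the pooled summit, 604 bp from the start, had a signal value of 9.78 and rank 9307. The evidence at hil-2 thus comes from 1 replicate.

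hil-8, on chromosome I from 5463117 to 5469639 on the minus strand, is the longest member at 6523 bp. Its candidates within the gene lay in introns. In replicate 1 the summit was 1805 bp from the start, with a signal value of 6.01 and rank 2877. In replicate 2 it was 2024 bp from the start, with a signal value of 7.52 and rank 9643. The pooled list had both positions as separate candidates, with ranks 11705 and 18471. The replicates thus pointed to different positions within the gene, and none was near the promoter. Behind the gene, 6767 bp from the start in the pooled list (rank 4529) and in replicate 1 (rank 12242) and 6847 bp from it in replicate 2 (rank 19403), all 3 lists had a candidate.

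hil-1, on chromosome V from 14949777 to 14952799, had a candidate near its start in the pooled list and in replicate 2 but not in replicate 1. The pooled summit lay 145 bp downstream of the start, with a signal value of 10.58 and rank 7408, and that of replicate 2 lay 124 bp downstream, with a signal value of 10.8 and rank 3603. The strongest candidate of replicate 1 was in an intron 1856 bp from the start, with rank 5974. Of the 31-base words of hil-1, 69.2% occurred once in the genome and the most frequent occurred 13 times. How reads with several matches were placed is not given in the sources used here. For the other members the share of unique words was 88.7% (hil-4) or more. In hil-8 the share was 96.7%, but its most frequent word occurred 155 times.

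hil-4, on chromosome V from 4754313 to 4755453, was the only one of the 7 members without an IDR summit that had summits within 100 bp of each other in the pooled list and both replicates inside its promoter window or body. The pooled list had a summit 542 bp from the start in coding sequence (signal value 10.8, rank 7018), replicate 1 one at 540 bp (signal value 3.15, rank 16627) and replicate 2 one at 548 bp (signal value 7.11, rank 10980). At its start a candidate was present in the pooled list, 29 bp upstream with rank 12471, and in replicate 1, 67 bp upstream with rank 12571, but not in replicate 2. The 2 replicates thus placed a weak summit at 540 and 548 bp, and the pooled list contains both replicates. How often weak candidates at other genes lie as close was not tested.

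hil-3, on the X chromosome from 8159169 to 8160084, had 1 pooled candidate, 28 bp downstream of its start, with a signal value of 9.75 and rank 9391. Replicate 2 had 4 summits in its window or body, the best at 90 bp upstream with rank 16852, and replicate 1 had 2, the better with rank 13581. hil-6, on chromosome V from 2030507 to 2031554 on the minus strand, had a pooled summit 219 bp from its start with rank 21737, the weakest of the family in that list. It had none in replicate 1, and 2 in replicate 2 with ranks 13530 and 18449. hil-5, on chromosome I from 5774585 to 5775610, had candidates in replicate 1 alone, with ranks 17912 and 23566.

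**Figure D3:**
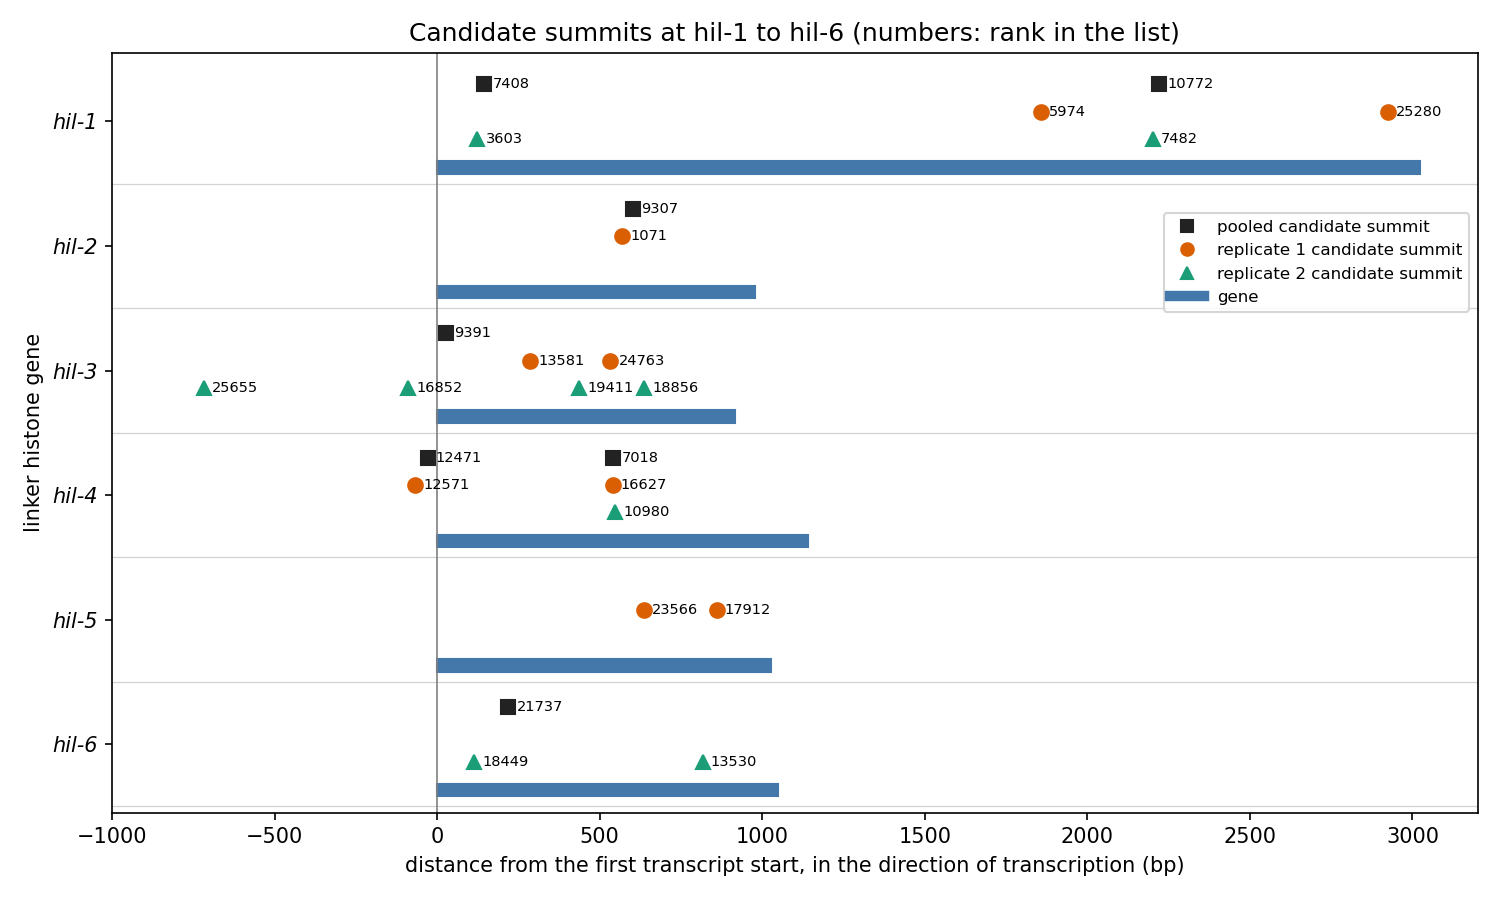
Candidate summits in the promoter windows and bodies of hil-1 to hil-6 by distance from the first transcript start in bp, in the direction of transcription, with their ranks beside them. Squares are pooled candidates, circles replicate 1, triangles replicate 2 and blue bars the genes; hil-8 is left out for its length. Most summits lie inside the genes, and the hil-4 summits near 540 bp are the only ones that all 3 lists place within 10 bp of each other.

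Both IDR promoter summits lay upstream of their genes, but over all the family's candidates coding exons held more summits than any other place. They held 7 of 13 summits (53.8%) in the pooled list, 6 of 15 (40%) in replicate 1 and 7 of 14 (50%) in replicate 2. Over all candidates in windows or bodies of protein-coding genes, coding exons held 35.8%, 32.5% and 37.7% in those lists. How much of the searched sequence is coding was not compared between the family and all genes. No preference for exons can therefore be read from these shares. The candidates in coding exons of the family had a median GC content of 52.5% in the pooled list, against 40.6% over all pooled candidates. Those in hil-1 were lower, at 38.6% and 41.6%. Of the 13 pooled summits of the family, both IDR promoter summits included, 8 were above the upper quartile of all pooled candidates, 47.5%. Candidates in coding exons of other genes were not compared by GC content. The part of base composition in the family's candidates was not tested. Of the 31-base words, 98.6% or more occurred once in the genome in his-24, hil-2, hil-3, hil-5, hil-6 and hil-7, against 96.7% in hil-8, 88.7% in hil-4 and 69.2% in hil-1.

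The 7 members without an IDR promoter peak also differed in how far the nearest IDR summit was. It lay 4585 bp from the start of hil-3, where the peak (8163592 to 8163915, signal value 32.86) had rank 484. For hil-2 the distance was 29590 bp, for hil-5 32909 bp, for hil-1 52510 bp and for hil-4 56496 bp. hil-8 and hil-6 were farthest, at 153255 and 159588 bp. The median over all protein-coding genes was 56643 bp, and 82.7% of genes were as near to an IDR summit as hil-6, or nearer. hil-3 was nearer than most genes, with 6.89% as near or nearer.

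The genes whose ranks were most like those of the 2 members with a peak were found among 487 genes with an IDR promoter summit and a promoter candidate in each replicate. Likeness was the Euclidean distance of log10 ranks over replicate 1, replicate 2 and the pooled list, which contains both replicates. For hil-7 they were serp-1.1 (ranks 35, 17 and 16, distance 0.271), W06H8.6 (73, 8 and 7, distance 0.336) and the sphingomyelin synthase gene sms-2 (133, 6 and 11, distance 0.491). For his-24 they were unc-14, which acts in axon growth (ranks 563, 947 and 645, distance 0.0535), C17G1.5 (548, 915 and 594, distance 0.0708) and pcf-11, a pre-mRNA cleavage factor gene (487, 779 and 635, distance 0.0759). The rank of his-24 in replicate 1, 515, is that of the summit in its first exon, which did not match the IDR summit. As hil-7 is near the top of the lists, fewer genes lie close to it in rank, and its nearest genes are farther away.

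Other genes of histones and their handling were read in the same way, by an IDR summit in the promoter window, beside the 2 of 9 linker histone genes. Of 44 canonical core histone genes 9 had one (20.5%), on 5 distinct peaks. The strongest were those shared by his-67 and his-68 (signal value 84.44, rank 20) and by his-61 and his-62 (50.36, rank 154). In the IDR list hil-7, with rank 13, stood above every peak of the core histones. The replicates differed in this order. In replicate 1 hil-7 had rank 52, below the best ranks at these gene pairs, 11 and 32. In replicate 2 it had rank 11, above their best ranks of 41 and 164. Of 8 core histone variant genes 1 had a peak, his-72, which encodes an H3.3 variant (signal value 31.01, rank 536). Of 5 high mobility group genes, most of whose products bind nucleosomes or bend DNA, 2 had a peak, hmg-1.2 (signal value 50.86, rank 145) and hmg-1.1 (47.97, rank 181). Of 7 genes of heterochromatin proteins and partners of linker histones, such as hpl-2 and sir-2.1, 1 had a peak, lin-13, a zinc finger gene (35.03, rank 406). None of 14 histone chaperone genes had one. A pooled candidate lay in the promoter window of 5 of the 9 linker histone genes, 20 of the 44 canonical core histone genes, 5 of the 8 variant genes, 4 of the 5 high mobility group genes, 5 of the 7 heterochromatin genes and 10 of the 14 chaperone genes, against 41.9% of all protein-coding genes.

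**Figure D4:**
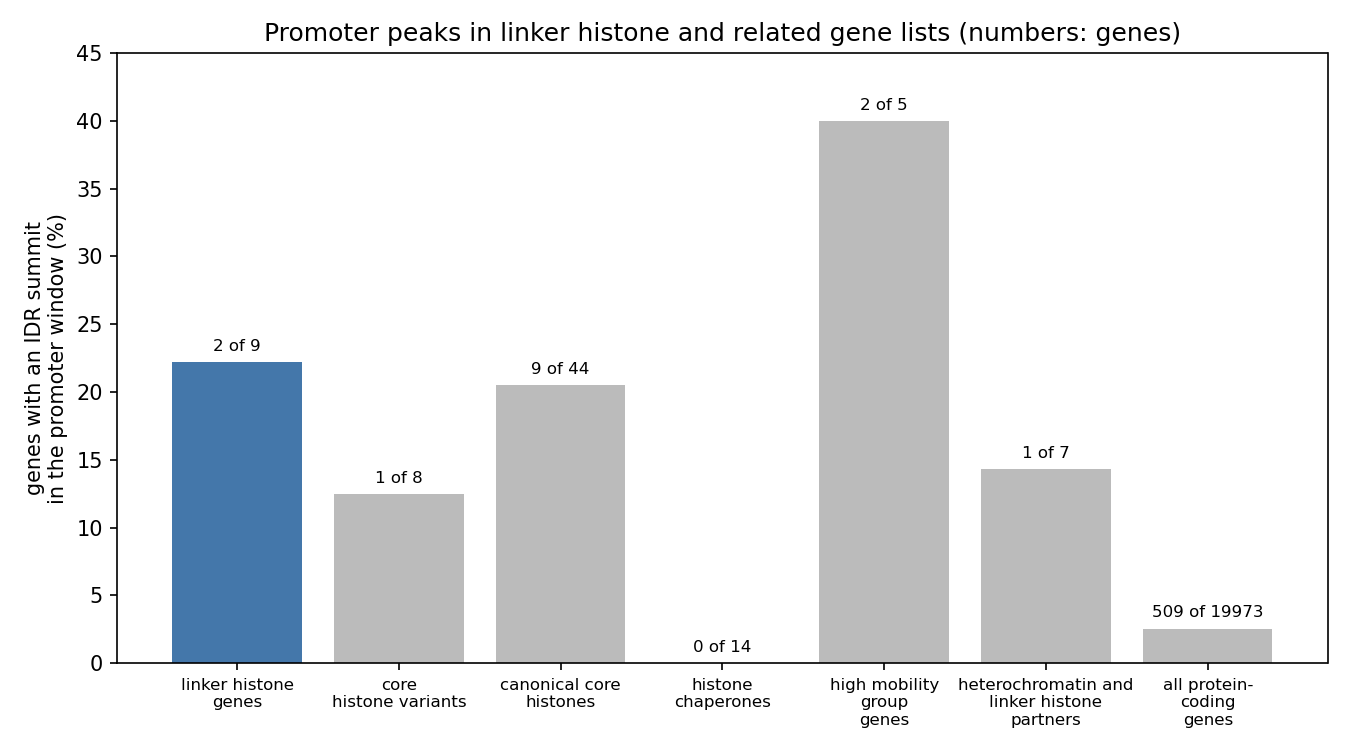
Share of genes with an IDR summit in the promoter window, in percent, for the linker histone genes (blue, left), the related gene lists and all protein-coding genes (right), with the number of genes over each bar. The linker histone share is 22.2%, that of canonical core histones 20.5% and that of all genes 2.55%; the lists are short, and no test of a list was made.

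The ranks in the replicates were also uneven in the related lists. The values given here are the best rank of each gene in each replicate, not ranks of summits matched to the IDR summit. At his-67 and his-68 the best ranks were 11 in replicate 1 and 41 in replicate 2, and at his-61 and his-62 they were 32 and 164. For hmg-1.2 they were 273 and 186, and for hmg-1.1 82 and 284. At lin-13 they were 11280 and 332, much higher placed in replicate 2. At his-31 and his-32, the genes with the weakest core histone peak (rank 699), they were 6842 and 706. hil-7, with 52 and 11, belonged to those ranked high in both.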

How the data were processed

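The values are peak lists of 2 biological replicates of 1 group. Candidate regions were called for each replicate and on both pooled, with a control, and thresholded by IDR into 1 list, per the labels and the text files deposited with the samples. The aligner, peak caller and IDR threshold are not given in the sources used here. The signal value is a score relative to the control, deposited by the authors without a scale, and the second value is a deposited -log10 q-value. The ce10 lists were not used. Coordinates are ce11, shown from base 1. Gene models are those of Ensembl release 115 (WBcel235).

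A summit was given to every gene whose promoter window (from 1000 bp before to 200 bp after each protein-coding start) or body held it, and the nearest replicate summit within 100 bp counted as a match. Ranks are by signal value within a list. No test was run, since there is 1 group and the members, lists, words and settings were chosen with earlier results of these data known. Named were all members, their neighbours within 500 bp, the 3 most like genes and up to 4 genes with a peak from each list. Outside this rule, his-31 and his-32 were named for the weakest core histone peak. The window search was tested on simulated data, where it recovered 200 of 200 planted genes. Depth is unknown, so no interval for it can be given. The scripts ran in Python 3.11.15 with pandas 2.3.3, numpy 2.4.6, matplotlib 3.10.9 and scipy 1.17.1.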

Additional observations from a re-analysis of the deposited data

How the results depend on the processing

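The 2 members with an IDR promoter summit were hil-7 and his-24 in all of the following settings. The share of all protein-coding genes was 1.83% with the promoter window at 500 to 100 bp and 3.54% at 2000 to 500 bp. It was 2.3% with the first start alone and 3.23% with the nearest start within 5000 bp. With the peak interval in place of the summit it was 2.76%. The stronger part of the list left 1, hil-7. Leaving out each replicate in turn gave 1 to 2 members with a promoter summit (hil-7 alone without replicate 1), 0 to 1 with a gene-body summit (his-24 without replicate 2) and 3 to 5 with a candidate in the promoter window. Over all protein-coding genes the shares without replicate 1 were 2.37%, 0.961% and 41.2%, in that order. Those without replicate 2 were 2.21%, 1.24% and 40.4%. Without replicate 2, the promoter and the gene-body summit of his-24 were the same summit, 193 bp downstream of its start. With the peak interval in place of the summit, 2 members, hil-7 and his-24, had an IDR peak over the gene body, against 1.58% of all protein-coding genes (0.946% by the summit). One alternative was chosen after seeing the data. Among the candidates of replicate 2 with a -log10 q-value of at least 2.47, 2 members had a promoter summit, against 4.73% of all protein-coding genes (2.55% for the IDR list), and replicate 1 had no such candidate. With words searched within 25 bp in place of 50 bp of the promoter summits, 1 of the 2 matches was left, and within 100 bp the number was 2. The number of promoter summits matched in both replicates, 1 of 2, was the same at 50 and 200 bp. No paired analysis was possible because there is 1 group. Depth is unknown, so what it limits cannot be stated.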
